A study of Mus musculus with 12 samples.

Results

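Cyclic AMP is a second messenger, and 10 genes that make it, degrade it or answer to it were followed through the treated MC38 tumour cultures. They are the adenylyl cyclase gene Adcy5, the phosphodiesterase genes Pde4b, Pde10a, Pde7b and Pde3b, the CREB-responsive genes Crem, Nfil3 and Ppargc1a, and the signalling brakes Rgs2 and Gem. The genes were chosen by symbol out of 16399 gene symbols, with earlier results of the same comparisons known, so their fold changes and p-values below describe them and are not independent evidence. All 10 were listed in each of 5 comparison tables. MC38 is a colon carcinoma line of C57BL/6 mice, and here its tumours came from the C57BL/6 albino strain. Fresh tumours were dissociated, and the pieces of 40 to 100 µm, which can hold host cells beside tumour cells, were kept in a collagen gel of 2.8 mg/mL inside a microfluidic chip. Treatment in 300 µL per well lasted 6 days, and there were 4 groups of 3 samples, 12 in all. The aPD-1 group had the PD-1 antibody RMP1-14 at 10 µg/mL. The aPD-1+CD8 group had the same PD-1 antibody with the CD8 antibody 53-6.7, at 10 µg/mL each. The IFNg group had interferon-gamma at 100 ng/mL, and the control group, IgG, had the isotype antibody 2A3 at 10 µg/mL. The labels name no isotype antibody in the wells of the first 3 groups.

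Adenylyl cyclases make cAMP when a Gs-coupled receptor is engaged, and phosphodiesterases break it down. In between, cAMP activates protein kinase A, which phosphorylates the transcription factor CREB. CREB target genes include brakes on the same pathway: PDE4 enzymes remove cAMP, and the short ICER forms made from Crem repress CREB-driven promoters. In T cells and macrophages cAMP is known for dampening activation.

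The tables hold 0 columns of single samples, so no value per sample can be shown, and library depth is unknown. No label says whether the 3 samples per group are different animals or different wells, so the p-values reflect sample-to-sample spread that could be technical only. Being bulk RNA, a lower value can mean fewer cells of a type or less RNA per cell, which cannot be told apart. Group levels below were derived from the authors' deposited tables, from the mean normalized count and the fold change of each, and are given as the lowest and highest level that the tables imply, with no SD. Such a range shows how far the tables differ, not the spread of samples, so ranges that do not overlap are no test. Epithelial and colon carcinoma markers were nearly absent from all 4 groups: 8 of 11 were listed, with a summed level of 4.34 to 9.57 in aPD-1, 4.27 to 9.74 in aPD-1+CD8, 7.70 to 12.6 in IFNg and 10.0 to 13.4 in IgG cultures. Of the T and NK cell markers, 6 of 10 were listed, and their sum was 5.72 to 8.13 in aPD-1, 9.73 to 12.1 in aPD-1+CD8, 7.21 to 9.75 in IFNg and 11.5 to 12.3 in IgG cultures. Most of that sum was Ptprc, the pan-leukocyte gene, with a mean count of 8.21 in the authors' deposited table for aPD-1 versus IgG, where the T cell receptor complex genes Cd3d and Cd3e had 0.675 and 0.381. Fibroblast markers summed to 7948 to 9444 in aPD-1, 2621 to 2940 in aPD-1+CD8, 2838 to 2857 in IFNg and 2668 to 3311 in IgG cultures, with 8 of 9 listed. The aPD-1 sum thus stood apart from those of the other 3 groups. Macrophage markers, all 10 listed, summed to 178 to 294 in aPD-1, 182 to 196 in aPD-1+CD8, 377 to 396 in IFNg and 199 to 359 in IgG cultures. The 7 endothelial markers summed to 96.1 to 111 in aPD-1, 53.9 to 55.2 in aPD-1+CD8, 86.0 to 91.1 in IFNg and 54.0 to 64.2 in IgG cultures. Of 5 neuronal markers 4 were listed, with sums of 1960 to 2244 in aPD-1, 1575 to 1628 in aPD-1+CD8, 2977 to 3019 in IFNg and 1727 to 1962 in IgG cultures. These sums rested on 1 or 2 genes. Only 1 marker had a mean count of at least 10 in aPD-1+CD8 versus IgG and in IFNg versus IgG, and 2 in each other comparison. The 16 ribosomal protein genes summed to 61636 to 70269 in aPD-1, 81033 to 83431 in aPD-1+CD8, 80842 to 83378 in IFNg and 82371 to 91503 in IgG cultures. By the authors' deposited table for aPD-1 versus IgG, 4 of 6 fibroblast markers tested were higher and 7 of 16 ribosomal protein genes lower. Over all genes 8.50% were higher there and 10.0% lower. The fibroblast and ribosomal protein sums set the aPD-1 group apart from the other 3, as the levels of Pde4b and Rgs2 did. Endothelial sums were higher in aPD-1 and IFNg cultures than in the other groups, as Crem levels were. The part of these lists in the results was not tested.

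Most of the 10 genes changed under PD-1 blockade. By the adjusted p under 0.05 in the authors' deposited table for aPD-1 versus IgG, 6 were higher (Pde4b, Rgs2, Crem, Nfil3, Gem and Pde10a) and 2 lower (Adcy5 and Ppargc1a), where 8.50% of all 12024 genes tested were higher and 10.0% lower. Adding the CD8 antibody went with changes of the opposite sign. In the authors' deposited table for aPD-1+CD8 versus aPD-1, 4 of 9 genes tested were lower (Pde4b, Rgs2, Crem and Pde10a) and 1 higher (Adcy5), against 7.82% of all genes higher and 6.94% lower. These comparisons share the aPD-1 samples, so their opposite signs are not independent of each other. The cultures with both antibodies did not differ detectably from IgG: in the authors' deposited table for aPD-1+CD8 versus IgG, 0 of the 10 genes passed DESeq2's test and 0 were at an unadjusted p under 0.05, and over all 15304 genes tested 0 passed (0%) and 57 were at an unadjusted p under 0.05. Those 57 are far fewer than the share of 0.05 that evenly spread p-values would give. The test was thus conservative there, and a lack of calls does not show that the 2 groups were alike. Fold changes of the 10 genes in that authors' deposited table, which appear strongly shrunken, ran from -0.10 for Pde7b to 0.13 for Pde4b. Ratios of the levels solved from all 5 means were larger, with log2 values of -1.18 for Pde7b, 0.59 for Nfil3, 0.51 for Crem and 0.44 for Pde4b, and have no test. Under IFNg alone Crem was higher and Adcy5 lower, 1 gene each way of 9 tested in the authors' deposited table for IFNg versus IgG, where 2.73% of all genes were higher and 1.38% lower. Set directly against PD-1 blockade, in the authors' deposited table for IFNg versus aPD-1, 3 of 8 genes tested were lower (Pde4b, Rgs2 and Pde10a) and 1 higher (Ppargc1a), against 8.39% of all genes higher and 7.13% lower. Since the rule that chose the genes saw these contrasts, nothing is read from the counts.

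**Figure D1:**
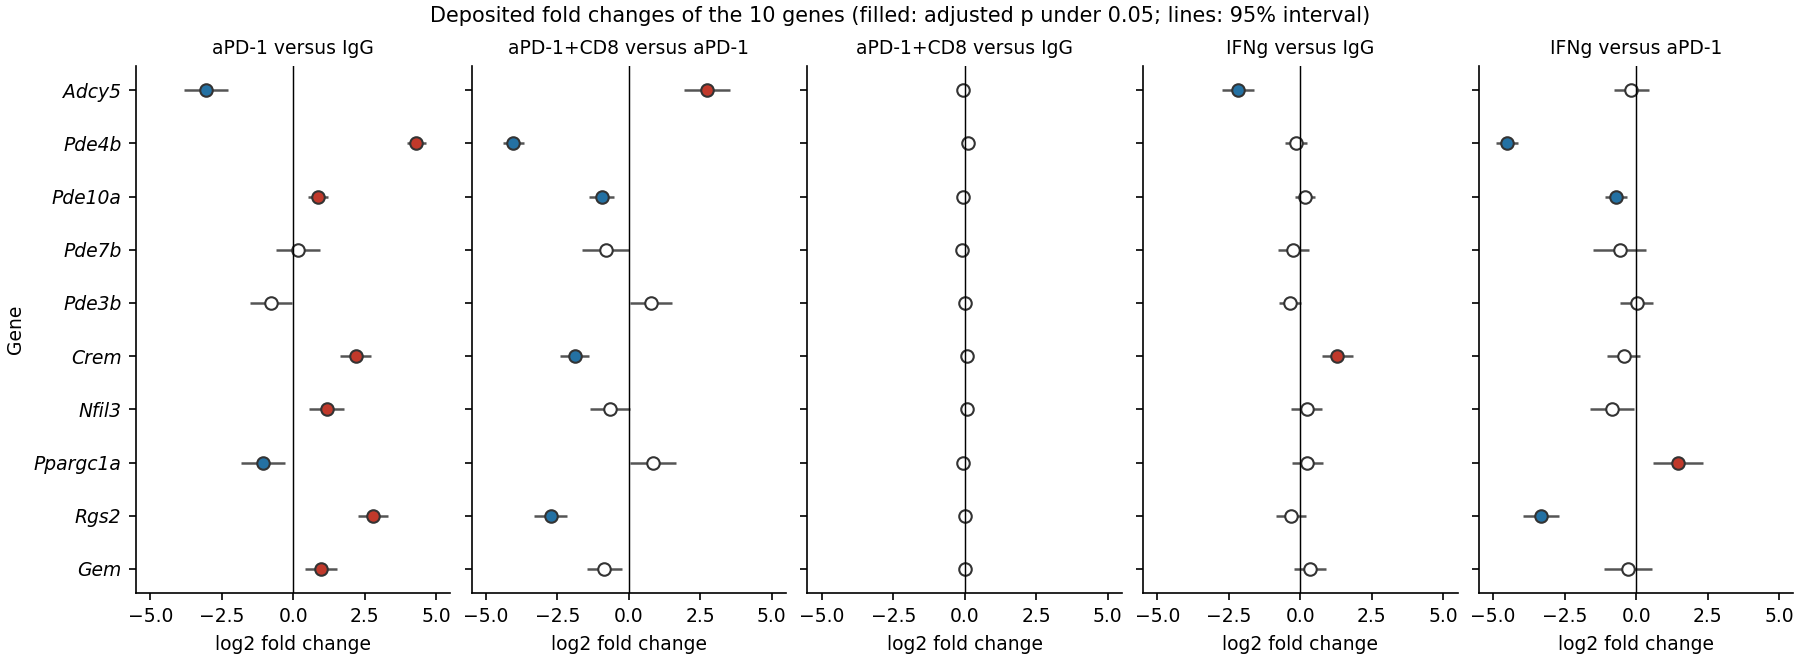
Log2 fold changes of the authors' deposited tables (x axis, first named group over second) of the 10 genes (y axis) in the 5 comparisons, as points with 95% intervals; filled points passed an adjusted p under 0.05, red higher and blue lower. Pde4b lies at 4.31, -4.05 and -4.51 in the comparisons with aPD-1 cultures and at 0.13 and -0.16 in the others, while Adcy5 is at -3.06 in aPD-1 versus IgG and -2.18 in IFNg versus IgG.

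**Figure D2:**
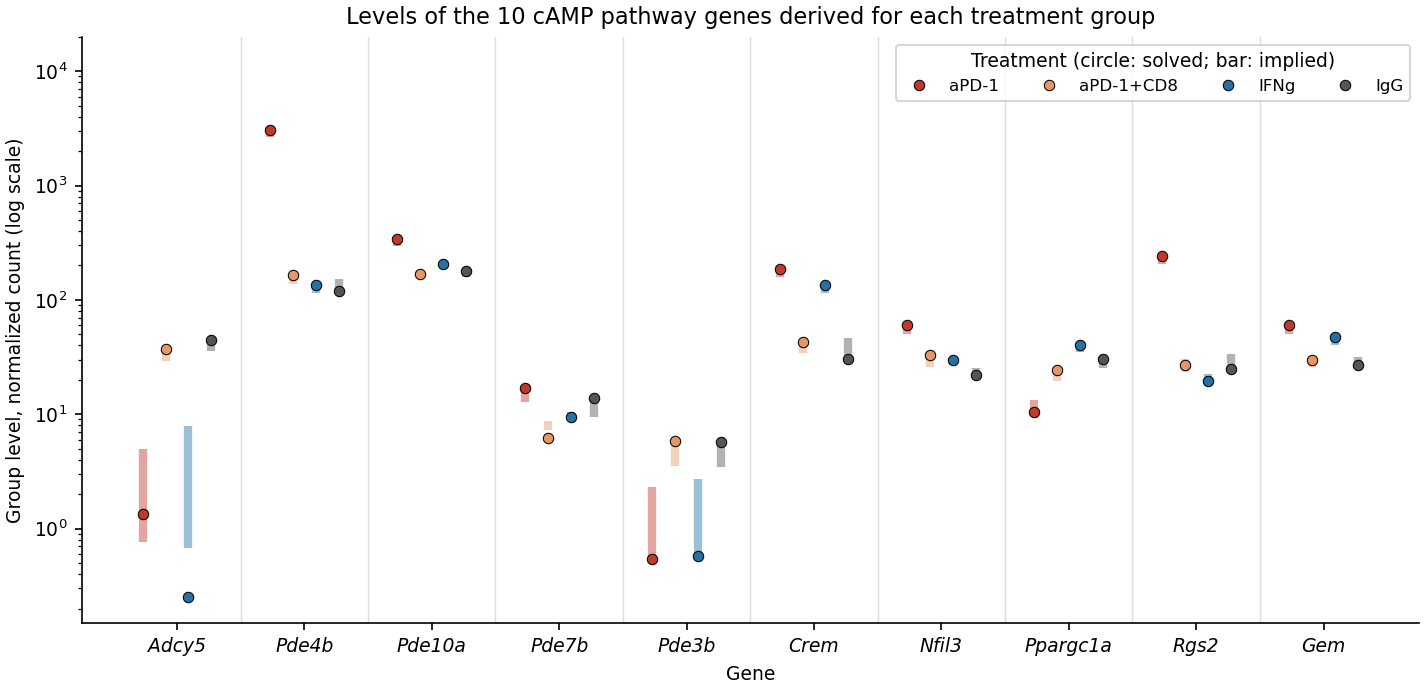
Levels of the 10 genes (x axis) in aPD-1, aPD-1+CD8, IFNg and IgG cultures, as normalized counts on a log scale (y axis). Bars span the levels that the separate tables imply and circles are the levels solved from all 5 deposited means together; Pde4b and Rgs2 stand high in aPD-1 cultures, Crem in aPD-1 and IFNg cultures, and Adcy5 lies low in the same 2 groups.

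Promoter sequence is shown for the members that hold the core of a cAMP response element, because CREB and the Crem products bind such elements. RefSeq windows of 300 bases around annotated starts, on GRCm38.p6, another build than the mm9 of the tables, were matched by symbol. Windows on 1 chromosome were left out before matching the 10 genes and the comparison list below. After that 7 of the 10 genes had a window, and Crem, Gem and Pde3b had none. A gene without a window here may still have an annotated start. The full element TGACGTCA was searched on both strands, with its core TGACG (which reads CGTCA on the other strand and lies inside the full element) and the AP-1 motif TGANTCA. Of the 7 genes 4 held a core site, in 4 of their 11 windows, and 0 held TGACGTCA or TGANTCA. Over all 32851 windows of the same length, with no chromosome left out, 20.8% held the core site, 1.79% the full element and 7.81% TGANTCA. The stretches below run from 200 bases upstream of the start to its last upstream base, 5′ to 3′ on the gene's strand, with core sites in capitals.
Rgs2, chr1:144004150-144004349, minus strand: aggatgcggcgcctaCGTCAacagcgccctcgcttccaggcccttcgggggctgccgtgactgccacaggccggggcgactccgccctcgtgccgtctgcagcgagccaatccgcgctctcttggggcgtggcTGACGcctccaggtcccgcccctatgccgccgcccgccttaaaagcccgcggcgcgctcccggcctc
Pde4b window 1, chr4:102421355-102421554, plus strand: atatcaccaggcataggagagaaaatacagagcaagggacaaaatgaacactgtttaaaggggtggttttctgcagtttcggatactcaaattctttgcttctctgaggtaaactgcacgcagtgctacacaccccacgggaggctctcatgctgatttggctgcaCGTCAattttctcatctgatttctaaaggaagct
Ppargc1a, chr5:51567726-51567925, minus strand: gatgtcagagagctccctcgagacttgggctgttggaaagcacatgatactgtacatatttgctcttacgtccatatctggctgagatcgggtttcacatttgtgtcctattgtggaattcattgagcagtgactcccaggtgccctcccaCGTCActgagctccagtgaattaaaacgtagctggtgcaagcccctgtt
Nfil3, chr13:52981040-52981239, minus strand: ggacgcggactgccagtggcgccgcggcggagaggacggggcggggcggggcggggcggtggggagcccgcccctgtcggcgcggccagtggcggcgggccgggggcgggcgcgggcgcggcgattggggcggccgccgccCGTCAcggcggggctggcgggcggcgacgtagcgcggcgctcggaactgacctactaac
The core sites lay at bases -185 to -181 and -67 to -63 before the start in Rgs2, -34 to -30 in Pde4b, -49 to -45 in Ppargc1a and -59 to -55 in Nfil3. The letters of Rgs2 at -67 face the gene's direction as TGACG, and the other 4 core sites read CGTCA. Pde4b has 4 annotated starts, of which window 1 alone held a core site, and the tables count reads per gene, so they do not tell which start was used. Windows of Adcy5, Pde7b and Pde10a held none of the letters searched. The 4 genes with a core site included 3 that were higher in aPD-1 than in IgG cultures and 1, Ppargc1a, that was lower. For comparison, 21 of 29 genes on a list of other cAMP and CREB targets had windows after the same chromosome was left out. Of these 18 held the core site, and 5 the full element: Scg2, Btg2, Areg, Sst and Dusp1. Counted by window, as the shares over all windows are, 19 of 28 held the core site and 5 the full element.

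Cyclic AMP synthesis was represented by Adcy5, a cyclase that Gi proteins inhibit and that is best known from striatum and heart. Adcy5 was lower in aPD-1 than in IgG cultures by a log2 fold change of -3.06 ± 0.39 (SE; adjusted p = 3.37e-13), an 8.37-fold difference, in the authors' deposited table. IFNg cultures were lower than IgG cultures as well, at -2.18 ± 0.28 (adjusted p = 1.20e-12) in the authors' deposited table for IFNg versus IgG. With the CD8 antibody added, Adcy5 was higher than in aPD-1 cultures, at 2.75 ± 0.41 (adjusted p = 1.74e-09) in the authors' deposited table for aPD-1+CD8 versus aPD-1. These fold changes appear shrunken toward 0, and the means show how few counts the low groups had. The authors' deposited mean count over the aPD-1 and IFNg libraries together was 0.720, against 36.9 over the aPD-1+CD8 and IgG libraries. Implied levels were 0.760 to 4.93 in aPD-1, 29.3 to 36.0 in aPD-1+CD8, 0.680 to 7.90 in IFNg and 35.9 to 41.2 in IgG cultures, so the 2 low groups did not overlap the 2 high ones. Solving all 5 means together gave 1.35 in aPD-1, 37.2 in aPD-1+CD8, 0.254 in IFNg and 44.8 in IgG cultures. The aPD-1 and IFNg groups were not told apart (-0.16, 95% interval -0.79 to 0.46, with no adjusted p in the authors' deposited table for IFNg versus aPD-1).

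Among the phosphodiesterases, Pde4b, which hydrolyses cAMP and is a target of rolipram and related PDE4 inhibitors, changed most. Its implied level was 2647 to 3028 normalized counts in aPD-1, 136 to 159.7 in aPD-1+CD8, 114 to 126 in IFNg and 125 to 153 in IgG cultures. The aPD-1 group stood far above the other 3, which lay close together. In the authors' deposited table for aPD-1 versus IgG its log2 fold change was 4.31 ± 0.17 (adjusted p = 1.92e-135), a 19.8-fold difference with the smallest p of all 15672 genes. It also had the smallest p of 15456 genes in the authors' deposited table for aPD-1+CD8 versus aPD-1, at -4.05 ± 0.19 (adjusted p = 6.81e-98), and stood at -4.51 ± 0.20 (adjusted p = 9.21e-108) in the authors' deposited table for IFNg versus aPD-1. Between IFNg and IgG cultures no difference was detectable: the authors' deposited table for IFNg versus IgG gives -0.16, with a 95% interval of -0.54 to 0.22 (adjusted p = 0.896).

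Pde10a, an enzyme that hydrolyses both cAMP and cGMP, was also highest in aPD-1 cultures, with a smaller span. Implied levels were 294 to 337 in aPD-1, 151 to 153 in aPD-1+CD8, 195 to 196 in IFNg and 159 to 184 in IgG cultures, so the aPD-1 range lay well above the others, which followed each other closely. The authors' deposited tables give a log2 fold change of 0.87 ± 0.17 in aPD-1 versus IgG (adjusted p = 1.07e-05), -0.96 ± 0.22 in aPD-1+CD8 versus aPD-1 (adjusted p = 1.86e-04) and -0.72 ± 0.20 in IFNg versus aPD-1 (adjusted p = 0.00302). In IFNg versus IgG the authors' deposited table gives 0.16, with a 95% interval of -0.19 to 0.51.

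The cAMP-specific Pde7b and the insulin-responsive Pde3b passed no test. Pde7b stood at 12.8 to 16.3 in aPD-1, 7.26 to 8.79 in aPD-1+CD8, 9.95 to 10.5 in IFNg and 9.41 to 14.5 in IgG cultures, and the aPD-1 and IFNg ranges both overlapped that of IgG, with the aPD-1+CD8 range below them. Its fold changes in the authors' deposited tables were 0.18 (95% interval -0.59 to 0.94) in aPD-1 versus IgG and -0.81 (-1.64 to 0.01) in aPD-1+CD8 versus aPD-1. Pde3b had very low counts, with authors' deposited means of 5.24 over the aPD-1+CD8 and IgG libraries and 0.521 over the IFNg and aPD-1 libraries. That split of the groups is the one Adcy5 showed. Its aPD-1 versus IgG fold change was -0.78 ± 0.38 (adjusted p = 0.148) in the authors' deposited table, while the levels solved from all 5 means were 0.537 in aPD-1, 5.86 in aPD-1+CD8, 0.579 in IFNg and 5.77 in IgG cultures. Only 2 of the 5 authors' deposited tables give Pde3b an adjusted p, so no difference was detectable for it with that test.

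Crem, the gene of the CREM and ICER factors, was the one of the 10 that was higher under both PD-1 blockade and IFNg. Implied levels were 158 to 178 in aPD-1, 34.4 to 42.3 in aPD-1+CD8, 115 to 129 in IFNg and 32.4 to 46.6 in IgG cultures, 2 high groups and 2 low ones with no overlap between them. The authors' deposited tables give 2.19 ± 0.28 in aPD-1 versus IgG (adjusted p = 2.60e-13), 1.30 ± 0.27 in IFNg versus IgG (adjusted p = 1.03e-04) and -1.90 ± 0.26 in aPD-1+CD8 versus aPD-1 (adjusted p = 9.74e-12). IFNg and aPD-1 cultures did not differ past the threshold: -0.44, with a 95% interval of -1.01 to 0.14 (adjusted p = 0.370), in the authors' deposited table for IFNg versus aPD-1. The IFNg versus IgG fold changes appear more strongly shrunken than those of aPD-1 versus IgG, and the solved levels give ratios of 6.17 for aPD-1 over IgG and 4.49 for IFNg over IgG. Gene-level counts do not separate ICER from longer CREM transcripts.

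The other transcription regulators changed less. Nfil3, a bZIP repressor that interleukin-3 and cAMP induce, stood at 50.1 to 57.3 in aPD-1, 25.7 to 31.6 in aPD-1+CD8, 26.9 to 30.4 in IFNg and 23.2 to 25.3 in IgG cultures. Its level was highest in aPD-1 cultures, and the other 3 groups lay close together. The authors' deposited table for aPD-1 versus IgG gives 1.18 ± 0.31 (adjusted p = 0.00176), but neither other comparison with aPD-1 cultures passed, at -0.67 ± 0.36 (adjusted p = 0.228) in aPD-1+CD8 versus aPD-1 and -0.84 ± 0.39 (adjusted p = 0.141) in IFNg versus aPD-1. Ppargc1a, which encodes the mitochondrial biogenesis coactivator PGC-1 alpha, ran the other way, at 10.9 to 13.3 in aPD-1, 19.5 to 24.4 in aPD-1+CD8, 35.2 to 37.4 in IFNg and 25.4 to 31.8 in IgG cultures. The aPD-1 range was the lowest and the IFNg range the highest. None of the 4 overlapped, but such ranges do not hold the spread of samples. In the authors' deposited table for aPD-1+CD8 versus IgG the log2 fold change was -0.06 (95% interval -0.22 to 0.11). That value appears strongly shrunken, and the solved levels of Ppargc1a give -0.32, outside the interval. By the authors' deposited tables it was lower in aPD-1 than in IgG cultures at -1.07 ± 0.39 (adjusted p = 0.0373) and higher in IFNg than in aPD-1 cultures at 1.47 ± 0.45 (adjusted p = 0.00965). IFNg versus IgG gave 0.24 (95% interval -0.30 to 0.78) and aPD-1+CD8 versus aPD-1 gave 0.84 ± 0.41 (adjusted p = 0.172) in the authors' deposited tables, so its neighbours in that order were not told apart.

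Rgs2 encodes a GTPase-activating protein that shortens Gq signalling and also inhibits adenylyl cyclases, and it behaved like Pde4b. Its implied level was 205 to 235 in aPD-1, 23.5 to 30.6 in aPD-1+CD8, 18.9 to 22.3 in IFNg and 23.5 to 33.8 in IgG cultures, again 1 high group against 3 low ones. The authors' deposited tables give 2.80 ± 0.27 in aPD-1 versus IgG (adjusted p = 2.07e-22), -2.74 ± 0.30 in aPD-1+CD8 versus aPD-1 (adjusted p = 1.12e-17) and -3.33 ± 0.32 in IFNg versus aPD-1 (adjusted p = 1.74e-23). The last is a 10.1-fold difference. Against IgG, IFNg gave -0.33 (95% interval -0.87 to 0.21) in the authors' deposited table. Gem, a small GTPase of the RGK family that inhibits voltage-gated calcium channels, stood at 50.7 to 58.0 in aPD-1, 25.8 to 28.0 in aPD-1+CD8, 40.3 to 45.5 in IFNg and 25.4 to 31.8 in IgG cultures. It was 0.96 ± 0.29 higher in aPD-1 than in IgG cultures (adjusted p = 0.00678) in the authors' deposited table and just missed the threshold in that of aPD-1+CD8 versus aPD-1, at -0.86 ± 0.32 (adjusted p = 0.0509). The IFNg level of Gem lay between those of aPD-1 and IgG cultures, and neither difference passed: 0.34 (95% interval -0.21 to 0.89) in IFNg versus IgG and -0.29 (-1.13 to 0.55) in IFNg versus aPD-1, in the authors' deposited tables. Just inside and just outside the threshold among the 10 genes were thus Ppargc1a at 0.0373 in aPD-1 versus IgG and Gem at 0.0509 in aPD-1+CD8 versus aPD-1.

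**Figure D3:**
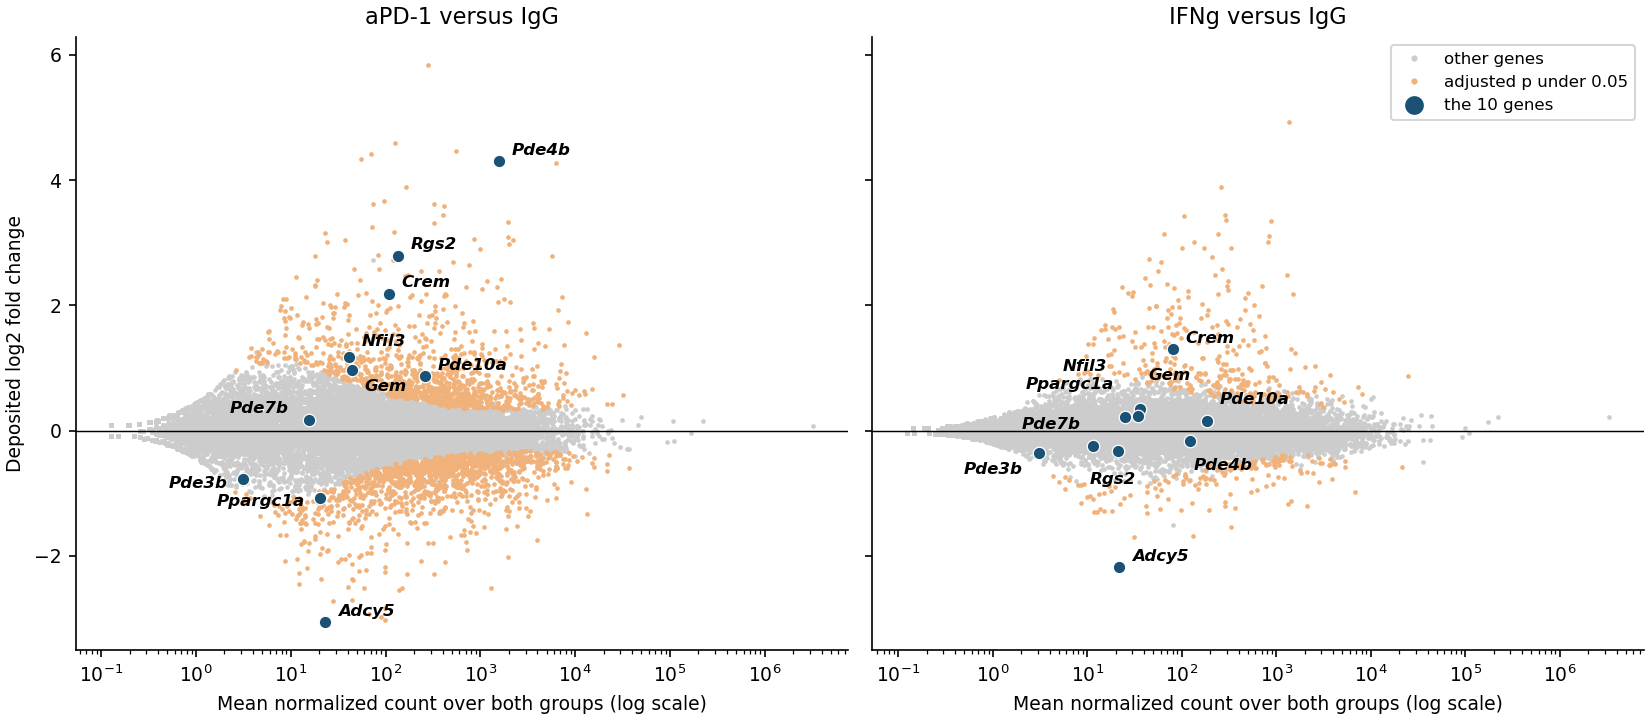
Deposited log2 fold change (y axis) against mean normalized count over both groups (x axis, log scale) for all genes of aPD-1 versus IgG and IFNg versus IgG; orange genes passed an adjusted p under 0.05, and the 10 genes are named in blue. Pde4b, Rgs2 and Crem lie far above 0 in aPD-1 versus IgG, Crem alone of these in IFNg versus IgG, and Adcy5 is below -2 in both.

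The genes with the most similar fold changes of aPD-1, aPD-1+CD8 and IFNg cultures, each set against IgG, were looked up among the 9862 genes whose mean was 10 or more throughout, by Euclidean distance in log2 units over the 3 comparisons, which share the IgG samples. Over all genes the fold changes of aPD-1+CD8 versus IgG ran only from -0.35 to 0.31, so that comparison weighed little in the distance. Nearest to Pde4b were the gelatinase gene Mmp2 (distance 0.445), the cytokine gene Il11 (0.701), the protease inhibitor gene Slpi (0.751), Igfbp4 (0.978) and the transcription factor gene Snai1 (1.01). Their log2 fold changes in the authors' deposited table for aPD-1 versus IgG were 4.28 for Mmp2, 3.62 for Il11, 3.90 for Slpi, 3.34 for Igfbp4 and 3.31 for Snai1. Nearest to Crem were the phospholipase gene Pla1a (0.120), the growth factor gene Fgf10 (0.227), the receptor genes Il13ra1 (0.395) and Osmr (0.528), and Ttc39c (0.598). Pla1a stood at 2.17 in aPD-1 versus IgG and 1.39 in IFNg versus IgG, and Fgf10 at 1.99 and 1.23, in the authors' deposited tables.

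Beyond the 10 genes, 136 of 158 entries on 11 lists of the cAMP pathway were found in at least 1 table. These lists were also chosen with earlier results of these data known. Their counts describe them and are not independent evidence. In the authors' deposited table for aPD-1 versus IgG, 21 of 100 tested were higher and 6 lower, beside 8.50% higher and 10.0% lower over all genes, with a median log2 fold change of 0.17 beside 0.01 over all genes tested. On the list of cAMP and CREB target genes 11 of 21 tested were higher and 1 lower, with a median of 0.78. Among these were Nr4a3 at 3.62 ± 0.30 and Nr4a2 at 3.09 ± 0.15, orphan nuclear receptors, Ptgs2 at 3.06 ± 0.20, the cyclooxygenase that supplies prostaglandin E2, Junb at 2.30 ± 0.15, an AP-1 subunit, and Sik1 at 1.91 ± 0.17, a kinase that keeps CREB coactivators out of the nucleus, in the authors' deposited table. The 1 lower target was Egr1, an immediate early factor, at -0.81 ± 0.20 (adjusted p = 7.63e-04) in the authors' deposited table. Bdnf, the most abundant target that did not pass, gave 0.18 ± 0.20 there by the authors' deposited table. Like Pde4b, Nr4a3 and Sik1 were lower in IFNg than in aPD-1 cultures, at -3.55 ± 0.35 and -2.43 ± 0.21 in the authors' deposited table. Adding CD8 antibody left 10 of 20 tested targets lower and 1 higher in the authors' deposited table for aPD-1+CD8 versus aPD-1. Over all genes 6.94% were lower there and 7.82% higher. IFNg versus IgG had 1 target higher of 20, Junb at 0.55 ± 0.15 (adjusted p = 0.00799), in the authors' deposited table. Over all genes 2.73% were higher there and 1.38% lower, so nothing is read from that count. Ptgs2 and Ereg had empty p-values there and were not among the 20. The solved level of Ptgs2 was 1758 in IFNg and 153 in IgG cultures, which was not tested. The authors' deposited table for IFNg versus aPD-1 had 6 of 22 lower and 2 higher. Beside 7.13% lower and 8.39% higher over all genes, nothing is read from the 2 higher.

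Calls were also made among the other enzymes, G proteins and receptors. Of 10 other phosphodiesterases tested in the authors' deposited table for aPD-1 versus IgG 1 was higher, Pde4d, the close relative of Pde4b, at 2.18 ± 0.18 (adjusted p = 7.30e-31), and 0 were lower. Over all genes tested there 8.50% were higher and 10.0% lower, so nothing is read from that count. Pde4d was lower in aPD-1+CD8 than in aPD-1 cultures at -2.26 ± 0.22 and in IFNg than in aPD-1 cultures at -2.26 ± 0.21, in the authors' deposited tables. The cGMP-specific Pde9a passed in those 2 tables as well, at -1.54 ± 0.43 in aPD-1+CD8 versus aPD-1 and -2.41 ± 0.51 in IFNg versus aPD-1, by the authors' deposited tables. IFNg versus aPD-1 also had Pde1b lower at -0.65 ± 0.24 and Pde4a, another PDE4 gene, higher at 0.62 ± 0.23 in the authors' deposited table, while Pde2a, the most abundant that did not pass in aPD-1 versus IgG, gave -0.31 ± 0.17 there. Of 4 other cyclases tested, Adcy7 was higher in aPD-1 than in IgG cultures at 0.53 ± 0.20 (adjusted p = 0.0446) and Adcy6 gave 0.35 ± 0.14 (adjusted p = 0.0755) in the authors' deposited table, opposite in sign to Adcy5. Gnas, the gene of the stimulatory G protein, was higher at 0.58 ± 0.13 (adjusted p = 2.21e-04), and so were Ramp3, a receptor partner, at 1.66 ± 0.38 and the prostacyclin receptor gene Ptgir at 1.15 ± 0.42, in the authors' deposited table for aPD-1 versus IgG. Ramp2 gave -0.39 ± 0.27 in the authors' deposited table, and of 29 receptor entries only 6 could be tested there, of which 2 were higher. With the CD8 antibody added, Gnas at -0.59 ± 0.17, Adcy7 at -0.78 ± 0.21, Ramp3 at -1.68 ± 0.40 and Ptgir at -1.62 ± 0.42 were lower than in aPD-1 cultures, in the authors' deposited table. IFNg cultures were lower than aPD-1 cultures in Gnas at -0.56 ± 0.18, Ramp3 at -1.20 ± 0.44 and Ptgir at -1.53 ± 0.50 in the authors' deposited table, where Adcy7 gave -0.42 ± 0.21 (adjusted p = 0.186). In that comparison 1 of 11 phosphodiesterases was higher and 3 lower, and 0 of 4 cyclases passed. Of the G alpha subunits 2 of 5 were lower, and of the receptors 2 of 6, with 0 higher. Over all genes 8.39% were higher there and 7.13% lower. Gnai3 was lower in IFNg than in aPD-1 cultures at -0.54 ± 0.17 in the authors' deposited table, and Gnai2 gave 0.22 ± 0.13 in aPD-1 versus IgG.

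**Figure D4:**
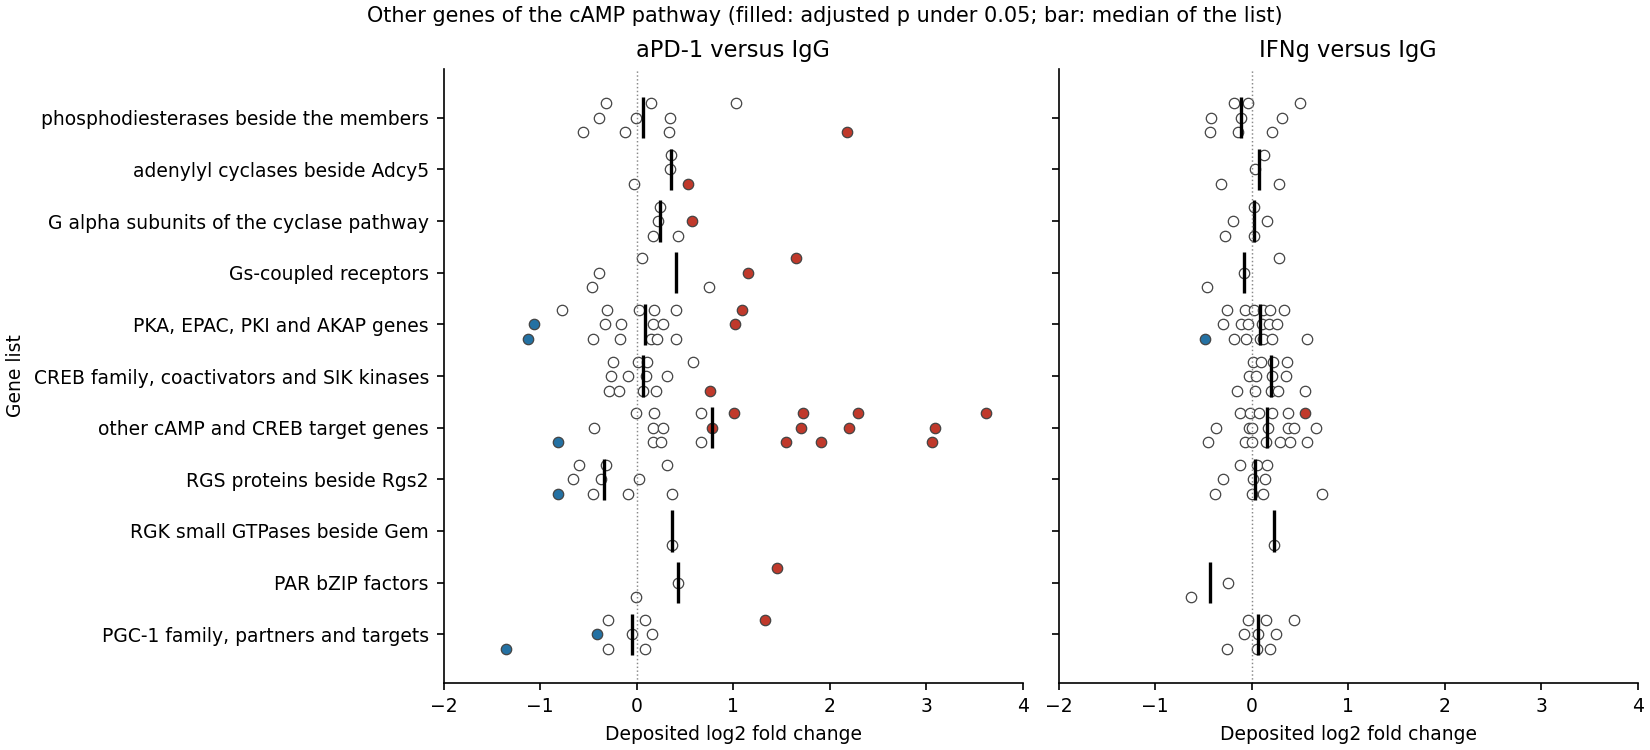
Log2 fold changes of the authors' deposited tables (x axis) of the other cAMP pathway genes tested, by gene list (y axis), in aPD-1 versus IgG and IFNg versus IgG; filled points passed an adjusted p under 0.05, red higher and blue lower, and the vertical bar is the median of the list. In aPD-1 versus IgG 21 of 100 are higher and 6 lower, beside 8.50% higher and 10.0% lower over all genes. In IFNg versus IgG 1 of 95 is higher and 1 lower, beside 2.73% higher and 1.38% lower over all genes.

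Of 18 kinase A, EPAC, inhibitor and anchoring genes tested, 2 were higher and 2 lower in aPD-1 than in IgG cultures, beside 8.50% higher and 10.0% lower over all genes, so nothing is read from that count. In the authors' deposited table for aPD-1 versus IgG the regulatory subunits Prkar2a, at -1.06 ± 0.15, and Prkar2b, at -1.12 ± 0.22, were lower, and the anchoring proteins Akap13, at 1.09 ± 0.14, and Akap6, at 1.02 ± 0.27, were higher. Prkar1a, the most abundant subunit gene that did not pass, gave 0.21 ± 0.14 in the authors' deposited table. Prkar2a was also the 1 pathway gene lower in IFNg than in IgG cultures, at -0.48 ± 0.15 (adjusted p = 0.0444) in the authors' deposited table. Of 13 genes of the CREB family, its coactivators and SIK kinases, Creb3l2 alone passed in aPD-1 versus IgG, at 0.76 ± 0.20 (adjusted p = 0.00142), and the coactivator gene Crebbp gave 0.02 ± 0.13, in the authors' deposited table. With 1 of 13 higher, beside the same 8.50% over all genes, nothing is read from that count either.

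Relatives of the remaining genes showed both directions. Of 10 other RGS genes tested in the authors' deposited table for aPD-1 versus IgG, 1 was lower and 0 higher. Over all genes 10.0% were lower there and 8.50% higher, so nothing is read from that count. The lower gene was Rgs16, at -0.82 ± 0.26 (adjusted p = 0.0144), opposite to Rgs2, and Rgs12 gave 0.37 ± 0.20. Rgs16 was higher in IFNg than in aPD-1 cultures at 2.18 ± 0.35 in the authors' deposited table. Rrad, the RGK relative of Gem that was listed, gave 0.37 ± 0.32 in aPD-1 versus IgG in the authors' deposited table. Hlf, a PAR bZIP factor, was higher there at 1.46 ± 0.39 (adjusted p = 0.00167) and its relative Tef gave 0.43 ± 0.20, in the authors' deposited table. Tef was lower in IFNg than in aPD-1 cultures at -0.72 ± 0.24 in the authors' deposited table. Of the PGC-1 family, Ppargc1b at -1.35 ± 0.31 (adjusted p = 1.70e-04) and Pprc1 at -0.41 ± 0.15 (adjusted p = 0.0415) were lower in aPD-1 than in IgG cultures like Ppargc1a, in the authors' deposited table. Their partner Gabpa gave 0.09 ± 0.18, while Acadm, a fatty acid oxidation gene regulated by PGC-1 alpha, was higher at 1.33 ± 0.22 (adjusted p = 4.79e-08), in the authors' deposited table. Ppargc1b had the order of groups that Ppargc1a had, with implied levels of 17.6 to 20.1 in aPD-1, 38.6 to 44.0 in aPD-1+CD8, 71.5 to 73.5 in IFNg and 45.9 to 54.4 in IgG cultures. Over all lists, 3 of 97 were higher and 20 lower in the authors' deposited table for aPD-1+CD8 versus aPD-1, beside 7.82% higher and 6.94% lower over all genes, and 0 of 129 passed in aPD-1+CD8 versus IgG. In the authors' deposited table for IFNg versus aPD-1, 7 of 104 were higher and 18 lower, beside 8.39% higher and 7.13% lower over all genes.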

How the data were processed

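RNA from 12 cultures was read after exome capture of 250 ng per library, per the labels' protocols. The data are 5 tables of the authors' own comparisons, made with DESeq2 on mm9 per the submitters' processing notes. Left out, as not given in the sources used here, were its version, the aligner, the counter, the annotation and the strand setting. Each deposited table has, per the file headers, columns for the mean normalized count (a signal scaled for library size, not raw reads), the log2 fold change and its error, the Wald score, and the p-value before and after adjustment. The deposited log2 fold changes look shrunken toward 0, since standard errors stay bounded at low counts: for genes with means below 10 the median of these errors was 0.275 in aPD-1 versus IgG, 0.133 in IFNg versus IgG and 0.0217 in aPD-1+CD8 versus IgG, so fold sizes are not on 1 scale across tables. A p-value without an adjusted one was taken as DESeq2's filter on low means, and an empty p-value as its mark for an outlying count; both stay out of counts.

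A gene was called at a deposited adjusted p under 0.05, over all genes of its table. Intervals of 95% are the fold change plus or minus 1.96 standard errors. Where fold changes are shrunken, such intervals do not bound the size of a difference. Ratios of solved levels can lie outside them. A group level was implied from each table's mean and fold change, for groups of equal size; levels were also solved from all 5 means by least squares after scaling the tables by median ratios over 5706 genes with a mean of at least 100 (factors 0.872 to 1), an alternative added after seeing the data. Tables held 0 columns of single samples. The calculations (Python 3.11.15, pandas 2.3.3, numpy 2.4.6, matplotlib 3.10.9) were tested on simulated data. The members and lists were chosen with earlier results of these data known. Named were the 10 genes; of each list, up to 3 genes with the smallest p among those called in each comparison, and the most abundant not called in aPD-1 versus IgG; and the 5 genes nearest to Pde4b and to Crem. Egr1 and Pde4a were named in addition, after their values were seen. The marker lists were T and NK cell, macrophage, fibroblast, endothelial, epithelial and colon carcinoma, neuronal and ribosomal protein genes. Counts per gene do not separate transcripts.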

Additional observations from a re-analysis of the deposited data

How the results depend on the processing

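The members' calls were recounted at an adjusted p under 0.01, with a log2 fold change of at least 1 required, without the filter on mean counts, and over genes with a mean of at least 10. No direction turned. At 0.01 Ppargc1a was lost in aPD-1 versus IgG. With the fold requirement Gem and Pde10a were lost in aPD-1 versus IgG, and Pde10a in aPD-1+CD8 versus aPD-1 and IFNg versus aPD-1. Over genes with a mean of at least 10, Gem was gained in aPD-1+CD8 versus aPD-1. Pathway genes called in IFNg versus IgG, 2 in all, came to 1 at 0.01, 0 with the fold requirement and 1 without the filter, and those in IFNg versus aPD-1 to 16 of 25 with the fold requirement. Over all genes the fold requirement left 707 of 2229 in aPD-1 versus IgG, 656 of 1706 in aPD-1+CD8 versus aPD-1, 190 of 471 in IFNg versus IgG and 860 of 1903 in IFNg versus aPD-1, and 0.01 left 1099 in aPD-1+CD8 versus aPD-1; each of these asks for more than the main rule does. Ratios of group means solved from all tables moved by more than 1 standard error from the deposited fold change for 26 of 50 member values. Some values that had not passed changed sign, such as Pde4b in IFNg versus IgG, at 0.17 against a deposited -0.16. Without the scaling 30 moved, 16 did not and 4 could not be solved. The cause was not tested. No paired analysis was possible because the tables hold no columns of single samples, and leaving out each replicate was not run for the same reason. Depth per library is unknown.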

Other observations

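Some deposited fold changes are much smaller than the deposited means of all tables imply. Adcy5 has an authors' deposited log2 fold change of -2.18 in IFNg versus IgG, while the levels solved from all 5 means, 0.254 in IFNg and 44.8 in IgG cultures, differ by -7.46 on the log2 scale. That solved IFNg level runs from 0.0211 to 0.483 when a table's scale is moved by 1%, so it says only that little was counted. Ptgs2, the cyclooxygenase gene, has solved levels of 1568 in aPD-1, 184 in aPD-1+CD8, 1758 in IFNg and 153 in IgG cultures. The authors' deposited table for IFNg versus IgG gives Ptgs2 a log2 fold change of 0.41 ± 0.20 with an empty p-value, and that of IFNg versus aPD-1 gives 0.06 ± 0.49. Ereg, an EGF receptor ligand gene on the same target list, has 2.20 ± 0.33 in aPD-1 versus IgG, 0.44 ± 0.21 with an empty p-value in IFNg versus IgG and 0.21 ± 0.49 in IFNg versus aPD-1, in the authors' deposited tables. DESeq2 leaves a p-value empty where a library's count is outlying, and the level of Ptgs2 and Ereg in each IFNg library was not analysed here.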
